A study of Mus musculus with 24 samples.

Results

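H3K27me3 was compared between cerebellar granule neurons (CGNs) kept for 1 day in vitro (DIV1) and for 7 days in vitro (DIV7), the first and last days of a culture series in which newly postmitotic neurons mature. These groups had 3 CUT&RUN libraries each, so 6 of the 24 libraries of the series were compared, and the 6 DIV3 and DIV5 libraries entered the same model to estimate the spread. Granule neuron precursors were taken from cerebella of CD1-IGS mice of both sexes, 6 to 8 days after birth, and enriched on a Percoll gradient, and each replicate was a culture from the pooled cerebella of litters. Cytosine arabinoside (AraC, 1 µM), which blocks the division of non-neuronal cells, was added on day 2 of culture. DIV1 cells were therefore collected before AraC and DIV7 cells after it, so days in culture and AraC cannot be told apart. The compared cultures received none of the inhibitors used elsewhere in the series.

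H3K27me3 is the methylation of lysine 27 of histone H3 that Polycomb repressive complex 2 (PRC2) deposits on silent genes, most often over CpG-rich sequence around their 5' ends. Polycomb repressive complex 1 carries CBX proteins that read the mark, and RYBP is a subunit of variant forms of that complex. In developing neurons the mark covers genes of other lineages and of other maturation stages, and it is removed by KDM6 demethylases or diluted when cells divide. In CUT&RUN an antibody to the mark directs a nuclease to cut out the chromatin around it, and the fragments are sequenced.

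Every library was represented by the list of broad peaks called on it alone. The DIV1 lists held 5522, 16559 and 13279 peaks, and the DIV7 lists 5178, 5891 and 9852. They covered 1.33, 5.19 and 4.08 Mb at DIV1 and 1.25, 1.19 and 2.25 Mb at DIV7, so DIV1 replicate 1 was as short as the DIV7 lists (difference of the means −1.97 Mb, exact two-sided permutation p = 0.2, and 0.1 is the smallest p possible with 3 libraries against 3). Read depth is unknown, and a region without a peak is one below the caller's threshold. Fewer marked cells and less mark per cell cannot be told apart in bulk cultures. Because lists of unequal length are hard to compare, each library was also limited to its strongest peaks as ranked on the deposited −log10 p, until the list reached the 1.11 Mb of the shortest list in the time course. The weakest peaks kept had a −log10 p of 5.00, 5.59 and 5.45 at DIV1 and 4.96, 4.80 and 5.22 at DIV7. The value compared is the percentage of a 6 kb window around the 5' end of each protein-coding gene (3 kb on each side) that lies under a peak, called coverage here, and its differences are in percentage points. Peak lists hold no expression, so the identity of the cells could not be checked from transcripts. Of 26 granule neuron identity genes 5 had a promoter peak in any of the 6 libraries, as had 13 of 26 Purkinje cell and interneuron markers and 9 of 34 glial, microglial and vascular markers, against 21.9% of all 21938 protein-coding promoters.

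The DNA under the changing peaks is shown for 3 promoters that gained and 3 that lost coverage, chosen because a stretch lay under a peak in all 3 libraries of the day with the higher coverage. Stretches are RefSeq GRCm38.p6 sequence, the same build as mm10, on the strand of the gene, outside untranslated regions and at most 240 bases long, with each CpG in capitals. The Klhl1 stretch (chr14:96518230-96518317, minus strand) is coding sequence. Those of Chrna3 (chr9:55026132-55026189, minus strand), Sh2d4a (chr8:68277006-68277245, plus strand) and Spock1 (chr13:57907647-57907886, minus strand) are intronic. The Hsd17b1 stretch (chr11:101079202-101079441, plus strand) has 81 coding and 159 intronic bases. The Aqp3 stretch (chr4:41098358-41098597, minus strand) lies upstream of the gene and is intergenic.
Klhl1: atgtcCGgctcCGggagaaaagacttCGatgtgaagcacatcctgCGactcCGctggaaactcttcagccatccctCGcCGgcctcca
Chrna3: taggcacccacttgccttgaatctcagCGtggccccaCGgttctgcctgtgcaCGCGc
Sh2d4a: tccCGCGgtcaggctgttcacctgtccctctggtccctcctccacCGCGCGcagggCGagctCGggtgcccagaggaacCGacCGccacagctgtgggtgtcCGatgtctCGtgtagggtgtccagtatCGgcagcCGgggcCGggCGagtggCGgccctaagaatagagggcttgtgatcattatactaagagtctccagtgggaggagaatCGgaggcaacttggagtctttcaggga
Spock1: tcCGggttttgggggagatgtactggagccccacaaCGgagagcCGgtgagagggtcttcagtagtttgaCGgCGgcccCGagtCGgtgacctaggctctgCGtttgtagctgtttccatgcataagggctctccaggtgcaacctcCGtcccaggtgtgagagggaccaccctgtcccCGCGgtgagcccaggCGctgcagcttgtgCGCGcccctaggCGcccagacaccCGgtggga
Hsd17b1: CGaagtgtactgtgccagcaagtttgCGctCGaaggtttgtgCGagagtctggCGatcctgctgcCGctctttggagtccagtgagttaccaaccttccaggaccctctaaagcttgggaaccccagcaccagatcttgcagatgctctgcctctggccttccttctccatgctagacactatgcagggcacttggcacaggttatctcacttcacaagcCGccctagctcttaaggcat
Aqp3: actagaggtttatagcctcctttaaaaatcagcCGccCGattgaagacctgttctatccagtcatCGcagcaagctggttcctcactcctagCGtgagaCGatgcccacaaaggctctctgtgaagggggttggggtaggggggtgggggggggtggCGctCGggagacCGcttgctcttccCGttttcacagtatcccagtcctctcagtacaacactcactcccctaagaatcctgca
The number of CpGs relative to that expected from base composition was 0.95 in the Klhl1 stretch, 0.70 in Chrna3, 0.73 in Sh2d4a, 0.64 in Spock1, 0.40 in Hsd17b1 and 0.49 in Aqp3. The median was 0.36 in the windows of the promoters tested. Those windows are 6 kb long and the stretches at most 240 bases, so the values are not like for like.

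At equal list length 8 promoters gained coverage by DIV7 (0.446% of the 1794 tested) and 10 lost it (0.557%), by limma at an adjusted p under 0.05. Before adjustment, 109 promoters with more and 122 with less coverage had a p under 0.05. The gained promoters included those of a nicotinic receptor subunit, an ephrin receptor, a potassium channel subunit and a junctional adhesion molecule. The lost promoters included those of a matrix proteoglycan, enzymes of steroid and coenzyme A synthesis, a water channel, a kinase and a Polycomb protein. Some windows overlap, so the 10 losses lie in 8 separate regions, and the promoters of both enzymes share the same peaks. Mean coverage of the 8 gained promoters was 0.209%, 1.74%, 3.14% and 11.3% on DIV1, DIV3, DIV5 and DIV7. With all deposited peaks it was 3.49%, 7.00%, 11.2% and 11.4%, so on that list DIV5 was as high as DIV7. Mean coverage of the 10 lost promoters was 14.6%, 4.09%, 2.33% and 0.841%, and 16.4%, 10.2%, 6.04% and 1.41% with all peaks.

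The values of single called promoters that follow are those of the equal-length lists unless all peaks are named. A promoter was tested if at least 3 of the 12 time course libraries covered it. At equal length Klhl1, Ccna1, Vwc2l and Sh2d4a met this filter only through DIV7. Tmem108, Tmem200a and Gm9767 met it only through DIV1. Their other libraries were at 0. Epha6, Coasy, Rasgef1a, Rps6ka1 and Rybp were covered in fewer than 3 libraries outside the day of higher coverage. They too met the filter only with that day, so the adjusted p of all these promoters is given as a description. Chrna3, which encodes a subunit of neuronal nicotinic acetylcholine receptors, had 3.93%, 1.08% and 0 of its window covered in the DIV1 libraries and 14.2%, 14.4% and 12.8% in the DIV7 libraries. All 3 DIV7 libraries lay above all 3 DIV1 libraries, and coverage rose by 12.13 ± 1.42 points (SE, limma adjusted p = 0.0041). Its strongest peak had a −log10 p of 6.02, 6.14 and 5.29 at DIV1 and 6.35, 5.40 and 5.73 at DIV7, so the strengths overlapped. With all peaks Chrna3 was covered over 15.9% to 19.3% at DIV5, where the equal-length lists had 0. At equal length 58 bases of Chrna3 lay under a peak in all 3 DIV7 libraries, so those peaks barely coincided. Klhl1, a Kelch-family gene of Purkinje cells and other neurons, was at 0 in every DIV1, DIV3 and DIV5 library and at 12.2%, 9.85% and 8.78% at DIV7 (change 10.28 ± 1.22 points, limma adjusted p = 0.0041). Among all deposited peaks, Klhl1 had one in 2 DIV3 libraries (1.40% and 3.48%) and 2 DIV5 libraries (4.13% and 8.03%) and in no DIV1 library, and it was the 1 promoter whose gain also passed there. Ccna1, which encodes a cyclin best known from the germ line, was at 0 until DIV5 and at 8.80%, 10.6% and 10.1% at DIV7 at equal length (limma adjusted p = 0.0041). With all peaks Ccna1 was still at 0 at DIV1 but had 3.33% and 13.3% in 2 DIV3 libraries and 5.17% and 7.93% in 2 DIV5 libraries.

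Vwc2l, which encodes a secreted protein with von Willebrand factor C domains, was covered over 7.68%, 6.80% and 9.62% at DIV7 and was at 0 in the 9 earlier libraries at equal length (limma adjusted p = 0.00732). With all peaks its DIV5 libraries, at 9.10%, 9.63% and 6.97%, overlapped those of DIV7, and 1 DIV1 library had 0.85%. Sh2d4a, which encodes an SH2 domain protein, had 7.92%, 6.80% and 7.17% at DIV7 and was likewise at 0 before. In the full lists, however, DIV1 replicates 2 and 3 had Sh2d4a peaks with a −log10 p of 4.83 and 5.25, below the limits of those libraries. Epha6, an ephrin receptor, stood at 14.0%, 10.2% and 9.85% at DIV7, with 1 earlier library, DIV5 replicate 1, at 7.87% at equal length (limma adjusted p = 0.0342). With all peaks Epha6 had no DIV1 peak, but its DIV5 libraries were at 15.7%, 11.6% and 22.6%. At equal length the 3 DIV7 libraries had 0 bases under a peak in common at Epha6. Jam2, a junctional adhesion molecule, was covered at DIV5 also in the equal-length lists. In those lists it was at 0 in the DIV1 libraries, at 25.2%, 17.6% and 21.2% at DIV5 and at 18.5%, 16.2% and 19.0% at DIV7 (limma adjusted p = 0.00849), so its DIV5 and DIV7 libraries overlapped. With all peaks the 10 kb stretch holding the Jam2 5' end had 1.98%, 0 and 10.6% covered at DIV1. At DIV7 that stretch had 11.1%, 9.72% and 11.4%, so DIV1 replicate 3 lay within the DIV7 range. Kcne3, an accessory subunit of voltage-gated potassium channels, had 0 at DIV1, 4.58%, 13.7% and 11.6% at DIV3, 0, 3.38% and 0 at DIV5, and 12.7%, 14.3% and 9.62% at DIV7 (limma adjusted p = 0.0362). Its DIV3 and DIV7 libraries overlapped. With all deposited peaks the Kcne3 change was 1.02 ± 3.74 points, since each DIV1 library held a Kcne3 peak with a −log10 p of 4.86 to 5.42.

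**Figure D1:**
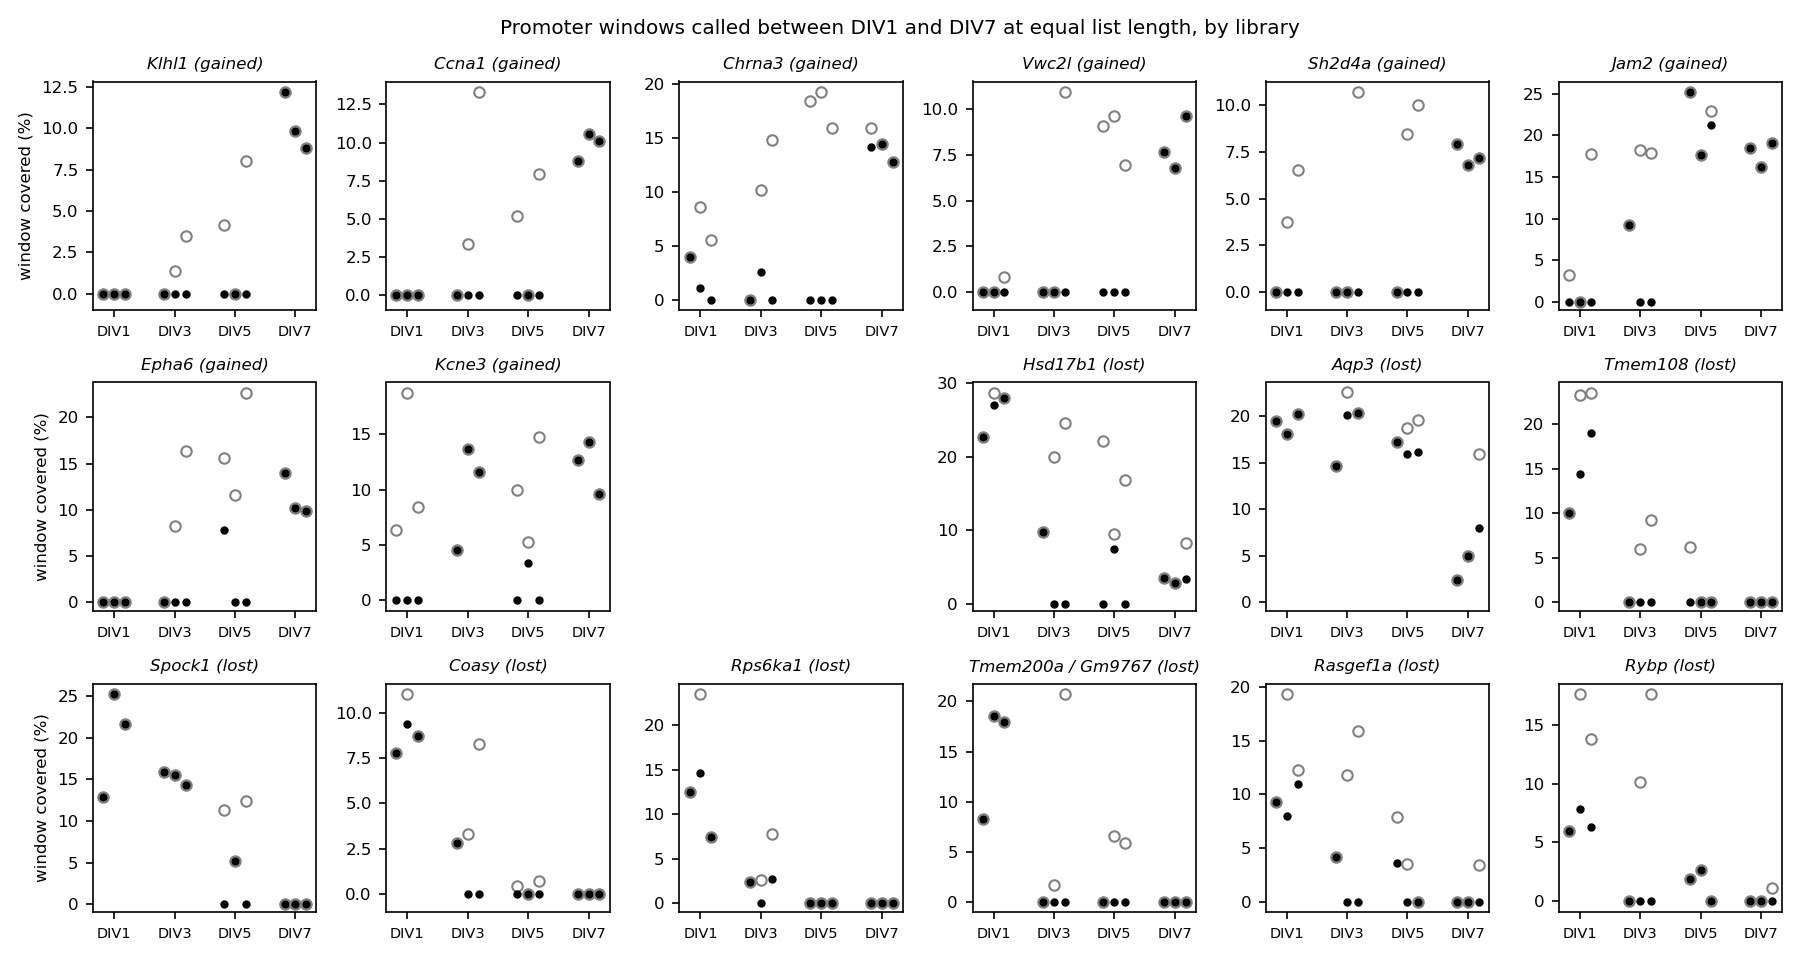
Percentage of the promoter window covered by peaks (vertical axis) in each library at DIV1, DIV3, DIV5 and DIV7 (horizontal axis) for the promoters called between DIV1 and DIV7 at equal list length; filled points are the equal-length lists, open circles all deposited peaks, and Tmem200a shares its values with Gm9767. In the filled points Klhl1, Vwc2l and Ccna1 stay at 0 until DIV7, Jam2 is high from DIV5, and Aqp3 stays between 14.7% and 20.3% until DIV5 and is at 2.38% to 8% at DIV7.

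Among the losses, Hsd17b1, which encodes an enzyme that makes estradiol from estrone, had 22.7%, 27% and 27.9% of its window covered at DIV1 and 3.58%, 2.85% and 3.43% at DIV7. The groups lay far apart, and coverage fell by 22.61 ± 2.97 points (limma adjusted p = 0.0069). The loss extended into the window of the neighbouring Coasy, which encodes the enzyme of the last steps of coenzyme A synthesis, at 7.78%, 9.38% and 8.73% against 0 in all DIV7 libraries (limma adjusted p = 0.00732). Both windows share the same peaks, which lie in Hsd17b1. Spock1, a gene for a secreted testican proteoglycan, had 12.8%, 25.3% and 21.7% at DIV1 and 0 at DIV7, with DIV3 still at 14.3% to 15.9% (change −19.93 ± 2.79 points, limma adjusted p = 0.00732). Tmem108, a transmembrane protein of neurons, had 10.0%, 14.3% and 19.0% at DIV1 and 0 on all later days at equal length (limma adjusted p = 0.0069).

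Aqp3, which encodes a water and glycerol channel, kept its coverage longest. Its DIV1 values were 19.5%, 18.1% and 20.3%, its DIV3 and DIV5 libraries lay between 14.7% and 20.3%, and its DIV7 values were 2.38%, 4.98% and 8% (change −14.19 ± 1.93 points, limma adjusted p = 0.0069). With all peaks DIV7 replicate 3 had 15.9%, above DIV3 replicate 1 at 14.7%. The change there did not pass (−11.54 ± 3.27 points, limma adjusted p = 0.136). The strongest Aqp3 peak had a −log10 p of 5.48 to 5.77 at DIV1 and 5.46 to 5.82 at DIV7, so shorter peaks of like strength were left. Rps6ka1, which encodes the kinase RSK1 downstream of ERK, had 12.5%, 14.6% and 7.45% at DIV1 and 0 at DIV7 (limma adjusted p = 0.01). Rasgef1a, an exchange factor for Ras-family GTPases, had 9.28%, 7.93% and 11% and then 0 (limma adjusted p = 0.0232). Rybp, which encodes the subunit of variant Polycomb complexes named above, had 5.98%, 7.87% and 6.30% at DIV1, and 0 in all DIV3 and DIV7 libraries at equal length (limma adjusted p = 0.0252). With all peaks 2 DIV3 libraries had 10.2% and 17.7% of the Rybp window covered, as high as DIV1 (5.98%, 17.7% and 13.8%), and DIV7 replicate 3 had 1.05%. At equal length the 3 DIV1 libraries had 0 bases under a peak in common at Rasgef1a and at Rybp. The window shared by Tmem200a and the gene model Gm9767 had 8.25%, 18.6% and 17.9% at DIV1 and 0 on every later day of the equal-length lists (limma adjusted p = 0.0106). With all peaks DIV3 replicate 3 had 20.7% of the Tmem200a window covered and 2 DIV5 libraries 6.57% and 5.88%, while DIV7 stayed at 0. No DIV1 library overlapped a DIV7 library at any of the 10 promoters, and this held also with all deposited peaks. These promoters were called on the same libraries, so the separation is given as a description.

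These counts changed when single libraries were left out. Without DIV7 replicate 1 there were 0 gained and 0 lost by limma (adjusted p of the 10 losses 0.0678 to 0.149, with 4 of the 8 gains no longer covered in enough libraries to be tested), without DIV7 replicate 3 there were 2 and 3, and without DIV1 replicate 1 there were 6 and 27. Without DIV7 replicate 2 there were 8 gains, of which 2 were among the 8 above, and 8 losses, all among the 10. A model of the 6 DIV1 and DIV7 libraries alone called 1 and 1.

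With all deposited peaks, 39 promoters lost coverage (1.09% of the 3584 tested) and 1 gained it (0.0279%), while 658 lower and 49 higher promoters had a p under 0.05 before adjustment. The median change of all tested promoters was −3.08 points, and 78.4% had a lower mean at DIV7, where the lists were shorter. The lost promoters included Cbx2, which encodes a Polycomb protein that binds H3K27me3, Cacna1g, a T-type calcium channel, Plk2, a kinase of active synapses, Efnb2, an ephrin ligand, and Dnm1, the dynamin of synaptic vesicle endocytosis. They further included Foxh1, a partner of SMADs in Nodal signalling, Timp2, an inhibitor of matrix metalloproteinases, and Pnmt, the enzyme that makes adrenaline. All 39 were covered in each DIV1 library, also in replicate 1 with its short list, and 26 had no peak in any DIV7 library. As some windows overlap, the 39 lie in 33 separate regions. Zfp664, Ccdc92, Zhx2, Efnb2, Zfyve28 and Cfap99 had peaks only at DIV1 and met the filter through that day alone. Ciz1, Dnm1, Tmem151a, Il17d and Cbx2 had peaks in fewer than 3 libraries outside DIV1, so they too met the filter only with DIV1. The adjusted p of all these promoters is also given as a description.

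Pard6b, which encodes a cell polarity protein of the PAR complex, had the smallest adjusted p. It was covered over 20.4%, 14.8% and 15.7% at DIV1, over 3.18% to 4.50% at DIV3, and was at 0 in all DIV5 and DIV7 libraries (change −17.00 ± 1.56 points, limma adjusted p = 0.0024). At equal length Pard6b had 14.75%, 0 and 9.65% at DIV1 and 0 at DIV7, so its groups overlapped (limma adjusted p = 0.289). The window shared by Rnf123, a ubiquitin ligase, and Mst1, which encodes macrophage-stimulating protein, had the largest loss, from 28.1%, 32.4% and 27.2% at DIV1 to 3.53%, 4% and 0 in Rnf123 (change −26.73 ± 2.83 points, limma adjusted p = 0.00359). Ubtd1 and Mms19, a pair of genes with a common start region, had 16.8%, 33.7% and 27.5% at DIV1 and 0 at DIV7 (change −26.00 ± 3.61 points for Ubtd1, limma adjusted p = 0.0099). Foxh1 had 23.6%, 25.2% and 29.3% at DIV1, stayed at 13.3% to 15.1% at DIV5, and was at 4.30%, 0 and 3.75% at DIV7 (limma adjusted p = 0.00845). At equal length DIV1 replicate 3 was at 0 in Rnf123 and Mst1, and DIV1 replicates 2 and 3 were at 0 in Foxh1. The groups overlapped there (limma adjusted p = 0.32 in Rnf123, 0.32 in Mst1 and 0.73 in Foxh1).

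Sh2b3, an adaptor that dampens cytokine receptor signalling, had 13.5%, 19.1% and 25% at DIV1 and 0 at DIV7 (limma adjusted p = 0.00894). Tmem191c, a transmembrane gene, had 15.6%, 31.4% and 22.4% and then 0 (limma adjusted p = 0.0148). Other losses were small but even between replicates in the percentage covered. The window of Zfp664, a zinc finger gene, and Ccdc92 had 8.75%, 8.23% and 9.03% at DIV1 and 0 in the 9 later libraries (limma adjusted p = 0.00845). In the 10 kb stretch holding these starts, however, 27 bases lay under a peak in all 3 DIV1 libraries, so the peaks barely coincided. The Dnm1 window, shared with Ciz1, a nuclear protein of DNA replication, had 8.15%, 10.8% and 9.60% and then 0 at DIV7 (limma adjusted p = 0.00894). Tmem151a had 7.60%, 7.27% and 7.25% and then 0 (limma adjusted p = 0.0141), and Grhl1, an epithelial transcription factor, had 9.90%, 15.4% and 15.1% and then 0, 0 and 1.80% (limma adjusted p = 0.00894). With all peaks the groups did not overlap in any of these windows, whereas at equal length they overlapped in each.

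Of the other losses, chosen for mention after their values were seen, Cbx2 had 6.58%, 13.3% and 10.8% at DIV1 and 0, 0 and 2.42% at DIV7 (limma adjusted p = 0.0423). Plk2 had 8.27%, 25.8% and 20% and then 0 (limma adjusted p = 0.044), and Cacna1g had 7.35%, 19.3% and 16.9% and then 0 (limma adjusted p = 0.0377). Efnb2 had 7.08%, 5.73% and 6.88% and then 0, and Zhx2, a zinc finger and homeobox gene, 7.05%, 7.82% and 6.70% and then 0 (limma adjusted p = 0.027 and 0.0148). Efnb2 and Zhx2 were at 0 already in every DIV3 and DIV5 library, whereas Foxh1, Tmc5, Hsd17b1 and Prss8 kept a mean of 12.3% to 16.2% at DIV5. At Zhx2 the 3 DIV1 libraries had 0 bases under a peak in common. Mean coverage over the 39 promoters was 15.5% at DIV1, 7.12% at DIV3, 3.37% at DIV5 and 0.837% at DIV7, and over all 3584 tested it was 7.06%, 6.76%, 5.91% and 2.86%. The former are given as a description, because the DIV1 and DIV7 values chose these promoters.

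Both ways of listing peaks gave the same direction at these promoters but called few in common. Of the 10 losses at equal length 4 passed also with all peaks (40%, and 10.3% of the 39): Hsd17b1, Coasy, Spock1 and Tmem108. Of these, Hsd17b1 and Coasy share the same peaks. At equal length all 39 had a lower mean at DIV7, 25 could be tested and 10 had groups that did not overlap. All 8 gains had a higher mean with all peaks, and 6 had groups that did not overlap, while the groups of Jam2 and Kcne3 overlapped. The count of losses with all peaks was moved most by DIV1 replicate 1, without which 7 promoters gained and 673 lost coverage. It was 9 without DIV1 replicate 2, 4 without DIV1 replicate 3 and 3 without any 1 of the DIV7 libraries, with 0 gained in each of these.

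**Figure D2:**
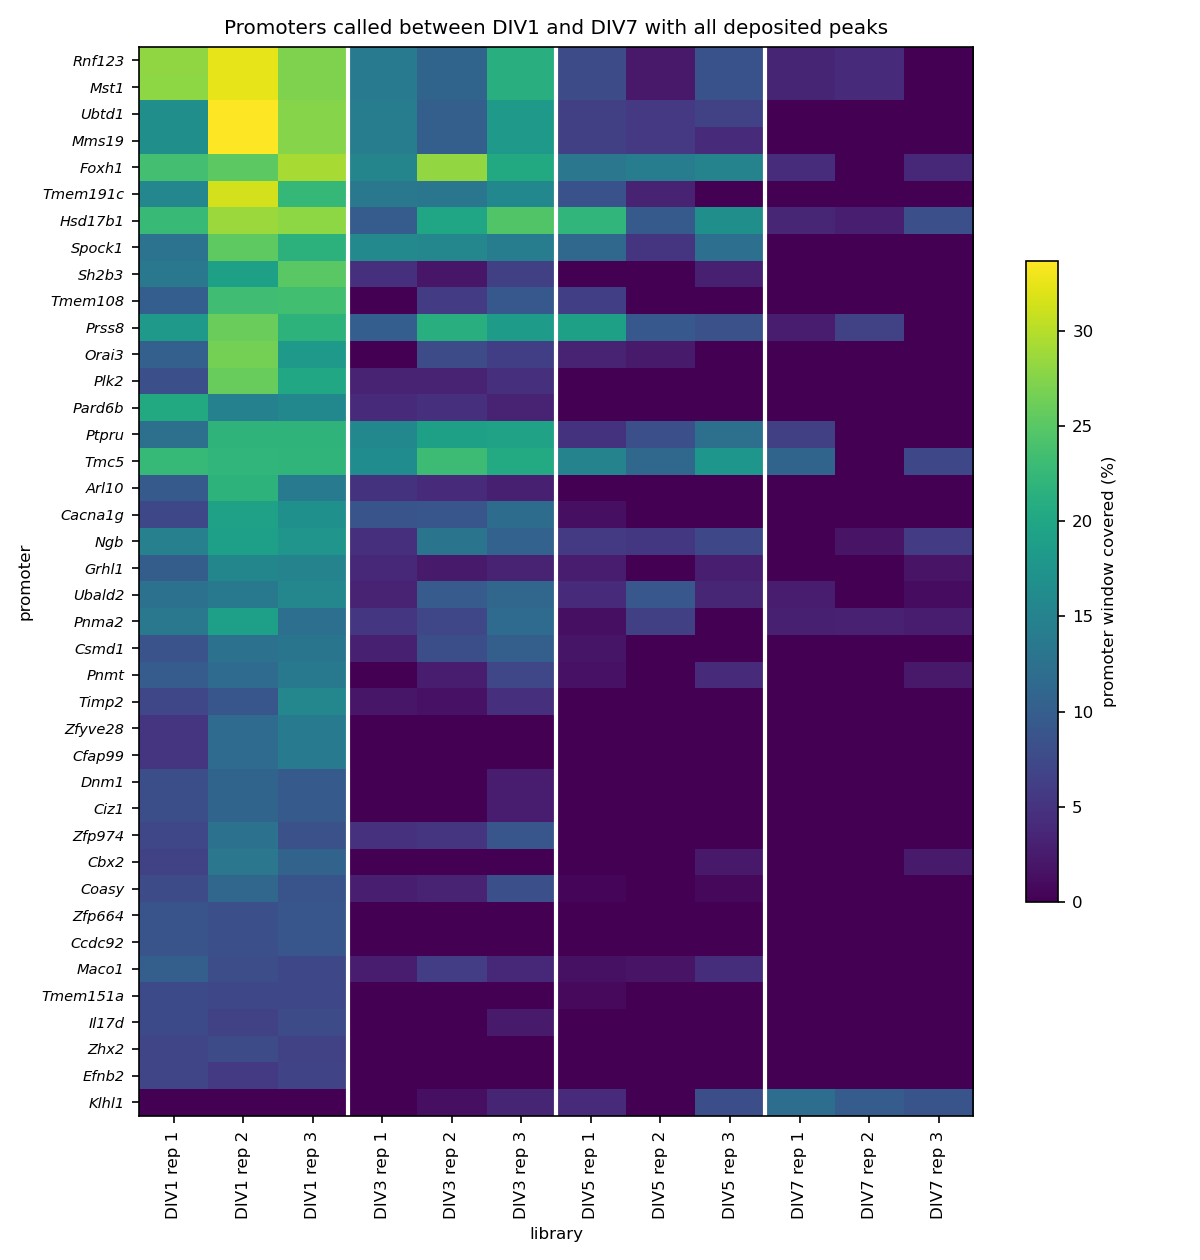
Percentage of the promoter window covered (colour) for the 40 promoters called between DIV1 and DIV7 with all deposited peaks (rows) in the 12 time course libraries (columns, white lines between days). The 39 lost promoters are covered in the 3 DIV1 columns and lower in the DIV7 columns, where 26 are at 0 throughout and Tmc5 reaches 10.8%, 8 are at 0 in all DIV3 columns, and Klhl1, the 1 gain, shows the reverse.

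Beyond the called promoters, coverage at equal length was higher in all 3 DIV7 libraries than in all 3 DIV1 libraries at 172 promoters (9.59% of 1794) and lower at 107 (5.96%). With all peaks these numbers were 77 (2.15% of 3584) and 626 (17.5%). The upward set shared 48 promoters between the lists (27.9% of 172 and 62.3% of 77) and the downward set 93 (86.9% of 107 and 14.9% of 626). None of the promoters in the following description passed the test unless stated, and their values are given for the functions they represent.

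Receptors and secreted signals were among the uncalled promoters that were higher at DIV7. Penk, which encodes the precursor of the enkephalins, was at 0 at DIV1 and at 13.6%, 8.20% and 18.5% at DIV7 (limma adjusted p = 0.0667). Npy2r, a receptor of neuropeptide Y, had 0, 0 and 3.98% at DIV1 and 15.7%, 21.2% and 20.9% at DIV7, and its groups stood apart also with all peaks (change there 14.50 ± 3.13 points, limma adjusted p = 0.0667). Tacr3, the neurokinin B receptor, had 9.12%, 8.88% and 7.75% at DIV7 and Ednrb, an endothelin receptor, 8.80%, 3.8% and 7.42%, from 0 in the DIV1 libraries. C1ql1, a secreted C1q-like protein of synapses, had 6.83%, 3.73% and 7.62% at DIV7 and 0 in the 9 earlier libraries at equal length, but its mean was lower at DIV7 with all peaks (−3.59 ± 4.61 points). Rgmb, a repulsive guidance molecule and BMP co-receptor, had 8.68%, 6.47% and 15.5%, and Wnt16, a Wnt ligand, 12.3%, 10.2% and 11.6%, also from 0. At Wnt16 the DIV5 libraries, at 11.2% to 21.7%, were as high. With all peaks the groups overlapped at Penk, Tacr3, Ednrb, Rgmb and Wnt16.

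Genes of transport and metabolism were also present. Slc1a5, a carrier of neutral amino acids, had 0, 0 and 4.82% at DIV1 and 23.0%, 14.1% and 17.8% at DIV7, with groups apart in both lists. Slc12a4, the widely expressed potassium-chloride cotransporter KCC1, had 0, 0 and 3.98% and then 14.4%, 13.9% and 7.50%, with overlapping groups when all peaks were used. Gldc, which cleaves glycine in mitochondria, went from 0 to 8.18%, 6.47% and 9.03% with no peak in any DIV1 library. Among enzymes of lipids and glycans, B3gnt5 had 10.3%, 9.48% and 14.1%, Ch25h, which hydroxylates cholesterol, 8.05%, 8.53% and 20.5%, and St3gal6, a sialyltransferase, 7.55%, 9.28% and 14.6% at DIV7, each from 0 at DIV1. B3gnt5 had no DIV1 peak in the full lists either (change there 11.31 ± 2.45 points, limma adjusted p = 0.0667). Pld1, a phospholipase D, reached 20.9%, 12.2% and 19.7% from 0, yet with all peaks its change was 1.42 ± 5.90 points. Elavl2, a neuronal RNA-binding protein, and Itgb8, an integrin subunit, had no DIV1 peak in any list and 6.32% to 19.6% and 2.95% to 11.4% at DIV7.

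On the downward side were channel, guidance and trafficking genes and genes of the matrix. All those named here stood apart with all peaks too. Cacnb4, a beta subunit of voltage-gated calcium channels expressed in cerebellum, had 3.62%, 17.1% and 15.3% at DIV1 and no peak at DIV7 in either list (change −12.00 ± 2.92 points, limma adjusted p = 0.11). Iqsec1, an exchange factor for ARF GTPases, had 20%, 22.3% and 29.4% and then 7.30%, 7.32% and 0. Efna1, an ephrin ligand, had 11.5%, 13% and 17.2% and then 1.73%, 2.88% and 0, the reverse of the ephrin receptor Epha6. Dpp10, an auxiliary subunit of A-type potassium channels, had 9.72%, 21.3% and 13.4% and then 0, 3.50% and 6.35%. Phyhip had 5.60%, 24.6% and 14.6% and then no peak in either list, and Rab37, a secretory GTPase, 14.8%, 27.7% and 17.6% and then 11%, 2.82% and 2.20%.

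Among matrix genes, Col12a1, a collagen of the fibril surface, had 12.8%, 18.9% and 27.8% at DIV1 and 3.62%, 7.68% and 0 at DIV7 (limma adjusted p = 0.0618). Cyp27b1, which activates vitamin D, had 21.9%, 37.5% and 31% and then 12.8%, 3.37% and 8.80%. Zfp974, a zinc finger gene, was at 7.20%, 12.7% and 7.12% and then at 0 (limma adjusted p = 0.0618), and passed with all peaks (adjusted p = 0.0383 by limma). Gas6, a ligand of TAM receptors, had 2.88%, 25.9% and 18.6% at DIV1 and 0, 1.60% and 0 at DIV7, so DIV1 replicate 1 lay nearest to DIV7.

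Gene lists were described by how many members stood apart, beside the 9.59% up and 5.96% down of all tested promoters at equal length. Of 57 tested extracellular matrix genes 11 stood apart upward and 5 downward, and their median change was 1.99 points against 0.28 for all tested. The upward members included proteases (Mmp14, Mmp25, Adamts7, Adamts19), crosslinking enzymes (Loxl3, Loxl4) and the adhesive or hydrated matrix proteins Fn1, Vcan and Matn2. Mmp14, a membrane metalloproteinase, had 0, 0 and 0.85% at DIV1 and 11%, 6.43% and 6.27% at DIV7 (limma adjusted p = 0.248). The downward ones included the structural proteins Col12a1, Col7a1 and Nid1, and Spock1. With all peaks, 13 of 92 tested matrix genes had a higher mean (14.1%), against 19.2% of all tested promoters.

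Of 60 metabotropic and peptide receptor genes 6 stood apart upward (Drd4, Ednrb, Grm3, Npy2r, Ntsr1, Tacr3) and 2 downward (Grm7, Oxtr). Oxtr, the oxytocin receptor, had 15.5%, 21.4% and 27.9% at DIV1 and 8%, 0 and 12.4% at DIV7 (limma adjusted p = 0.301). The list of voltage-gated ion channel genes also held the TRP channel Trpv4. Of its 35 tested members 4 stood apart upward (Kcne3, Kcnf1, Kcnv1, Trpv4) and 1 downward (Cacnb4). With all peaks 0 of 76 tested members stood apart upward and 17 downward, against 2.15% and 17.5% of all tested promoters. Of 17 BMP and TGF-beta pathway genes 14 had a higher mean, as had 53% of all tested promoters, and Tgfbr2, a TGF-beta receptor, and Vwc2l stood apart upward while Nog, the BMP antagonist noggin, stood apart downward. Nog was covered over 3.58%, 8% and 7.92% at DIV1 and over 2.35%, 0 and 0 at DIV7 (limma adjusted p = 0.174). Of 64 solute carriers 7 stood apart upward and 2 downward, and of 38 small GTPase regulators 4 and 4.

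Some lists gave little to compare. Of 172 homeobox genes 37 had a peak in any of the 6 libraries, 6 could be tested and none stood apart in either direction. Of 19 hedgehog pathway genes 4 were tested, and all 4 had a higher mean at DIV7 with overlapping groups. Gli1, a target and effector of hedgehog signalling in precursors, had 0, 2.92% and 1.08% at DIV1 and 13.2%, 5.07% and 0 at DIV7 (limma adjusted p = 0.526). Of 26 granule neuron identity genes 1 was tested. Of 10 tested Purkinje cell and interneuron markers 6 had a higher and 4 a lower mean. Klhl1 and Pvalb, the calcium buffer parvalbumin, stood apart upward and none downward. With all peaks 8 of 13 tested markers had a lower mean, as had 78.4% of all tested promoters. On those lists 1 marker stood apart upward and 3 downward. Of 80 ribosomal protein genes, which active cells transcribe throughout, 8 had a peak, 4 were tested and 1 stood apart downward. Of 21 actin and intermediate filament genes 14 had a lower mean, as had 45.4% of all tested promoters, 1 stood apart upward and none downward.

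**Figure D3:**
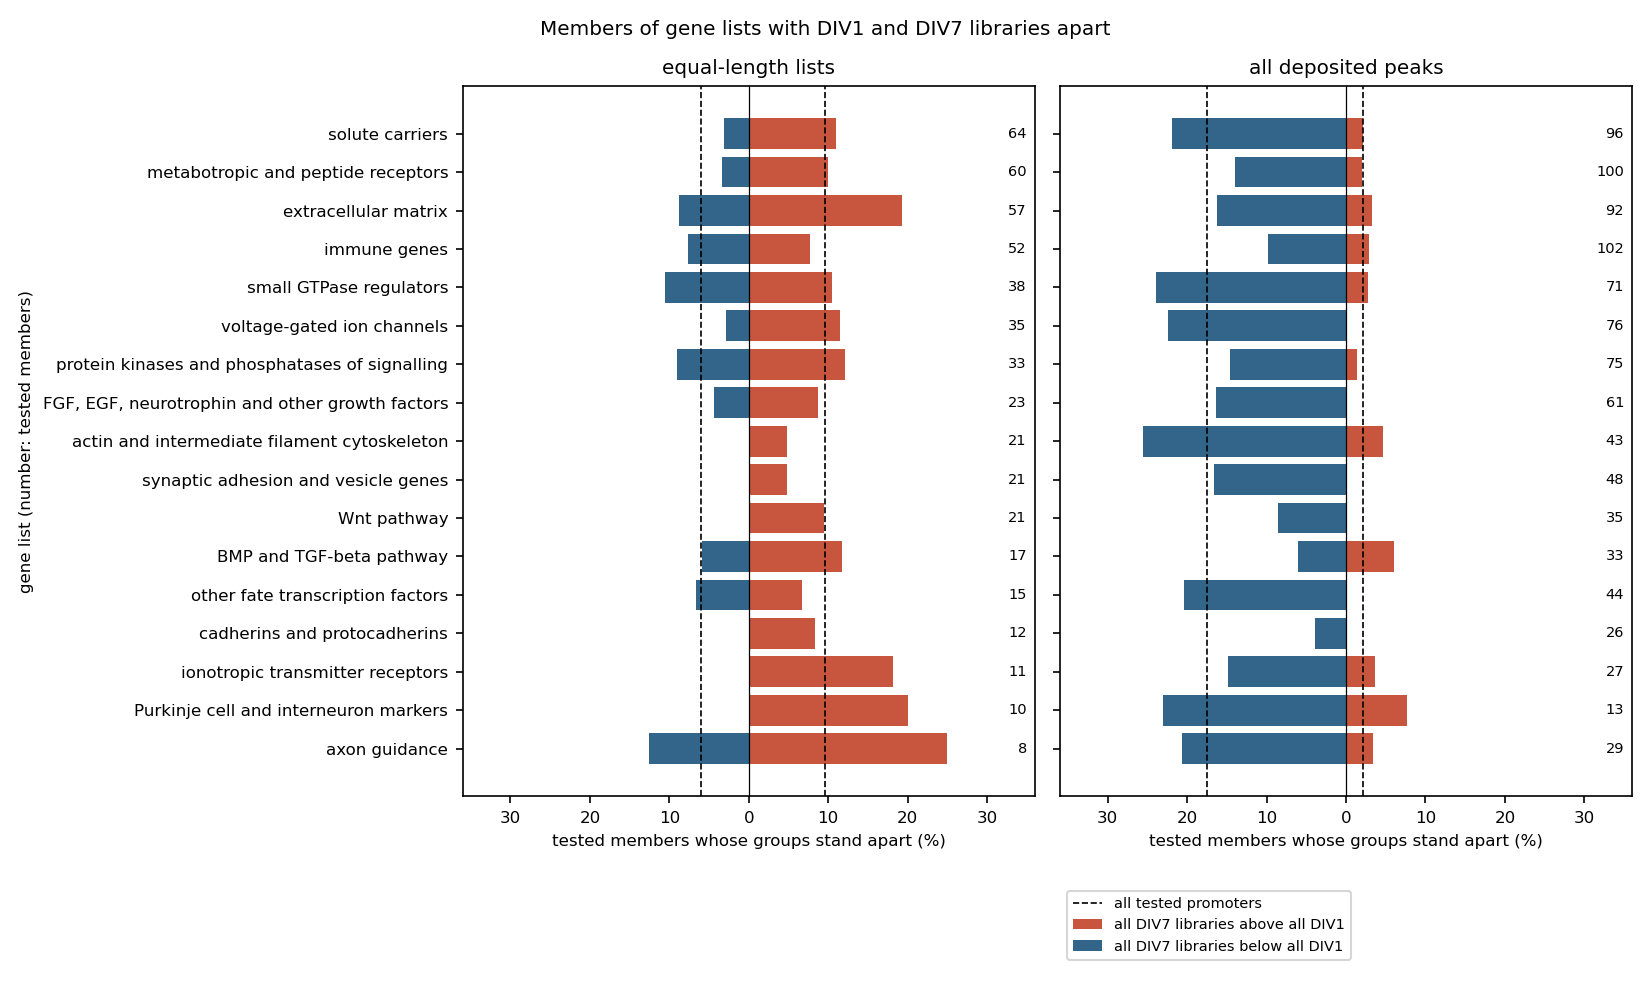
Percentage of the tested members of each gene list (vertical axis, lists with at least 8 members tested at equal length) whose DIV7 libraries all lie above (red, to the right) or below (blue, to the left) all DIV1 libraries, for equal-length lists (left panel) and all deposited peaks (right panel); dashed lines mark the share of all tested promoters and numbers give the members tested. The dashed lines stand at 9.59% up and 5.96% down on the left and at 2.15% up and 17.5% down on the right, so the balance between directions shifts with the peak list for most lists.

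In 10 kb bins of the genome, inside and outside promoter windows, there were 19 gains and 19 losses at equal length (0.397% of 4785 tested in either direction, limma adjusted p under 0.05). Of the gained bins 8 and of the lost bins 8 touched a promoter called above. Some called bins, among them those at Ccna1, Klhl1, C1ql1, Tenm4 and Tmem108, were covered at DIV7 only or at DIV1 only. They met the filter through that day alone, and their adjusted p is given as a description. Further bins, among them those at Rbfox3, Lmtk3, Cux2, Dcc, Rpl26 and Rin2, were covered in fewer than 3 libraries outside the day of higher coverage. These too met the filter only with that day, and their adjusted p is likewise a description. The lost bins that touched no called promoter included ones in Slc12a5, Rbfox3, Lmtk3, Cux2 and Dcc and one shared by Agrp and Ripor1. A further lost bin overlapped the Rpl26 promoter window, and its bases under a peak in all 3 DIV1 libraries were 100% intergenic. Of the lost bins 9 overlapped a promoter window, 6 lay in gene bodies and 4 between genes, against 45.2%, 20.8% and 34.1% of the tested bins. The mean was higher at DIV7 in 50.6% and lower in 46.9% of the tested bins, and all DIV7 libraries lay above all DIV1 libraries in 7.25% and below them in 5.77%. With all peaks 69.5% of bins had a lower mean, 1.56% stood apart upward and 10.7% downward. On those lists all 19 lost bins stood apart downward, 12 of the 19 gained bins stood apart upward, and 1 gained bin, at C1ql1, had a lower mean at DIV7.

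Slc12a5 encodes KCC2, the chloride exporter that makes GABA inhibitory in mature neurons. Its bin (chr2:164990001-165000000) was covered over 16.3%, 18.8% and 16.8% at DIV1 and over 0, 0 and 1.00% at DIV7 (change −17.0 ± 2.24 points, limma adjusted p = 0.00756). The 1453 bases under a peak in all 3 DIV1 libraries lay 95.8% in exons, and the nearest gene start was that of Slc12a5 itself, 29199 bp away. With all peaks the DIV1 and DIV7 values were the same. Mean coverage in between was 3.23% at DIV3 and 1.15% at DIV5 at equal length, and with all peaks the DIV3 libraries had 9.68%, 7.20% and 17.2%. 

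Rbfox3 encodes NeuN, the splicing factor used as a marker of neurons. Its intronic bin (chr11:118570001-118580000) had 7.39%, 10.1% and 10.1% at DIV1 and 0 at DIV7 in both lists (limma adjusted p = 0.00599). Lmtk3, a membrane kinase, had 4.98%, 10.7% and 11.6% and then 0 in an intronic bin (limma adjusted p = 0.0288). The bin of Agrp, a hypothalamic peptide, and Ripor1 had 15.7%, 18.7% and 13.8% and then 0, 3.68% and 0 (limma adjusted p = 0.021). An intergenic bin 38692 bp from Ccr1, a chemokine receptor, had 13.7%, 13.2% and 10.5% and then 1.77%, 0 and 1.71% (limma adjusted p = 0.0118). The smallest adjusted p of all, 0.000187 by limma, belonged to an intergenic bin 230600 bp from Kazn. It had 8.49%, 7.65% and 9.71% at DIV1 and 0, 0 and 0.53% at DIV7, with 0 on the days between at equal length. This bin met the filter only with DIV1, so its adjusted p is given as a description. Of the losses some lay in repeats, which short reads place with less certainty. The shared bases were repeat-masked to 60.95% in the Y bin near Gm47283 and to 100% in the bin in Dcc.

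Among the gained bins outside called promoters, C1ql1 had 4.10%, 2.24% and 4.57% at DIV7 (limma adjusted p = 0.022), Rin2, an exchange factor for RAB5, 5.13%, 2.63% and 3.95% (adjusted p = 0.0296 by limma), and Tenm4, a teneurin of synapses and myelination, 2.08%, 2.85% and 4.24%, each from 0 at DIV1. Rin2 and Tenm4 had no peak in these bins at DIV1 in the full lists either. The bin of Gm7697 had 0.64%, 0 and 0 at DIV1 and 6.49%, 4.45% and 5.44% at DIV7, and a bin 6029 bp from Gm10128 on chromosome 14 had 0, 0 and 3.91% and then 11.2%, 10.5% and 8.18%. With all peaks the bin near Gm10128 had 0, 11.2% and 8.71% and then 11.2%, 10.5% and 11.3%, so its groups overlapped. Intergenic bins 16062 bp from Rfx4 and 24338 bp from Sulf2 had 3.27% to 3.71% and 2.77% to 4.07% at DIV7 and 0 at DIV1. Both had a peak in 2 DIV1 libraries of the full lists, where their groups overlapped. The bin 99553 bp from Nr5a2, at 3.26%, 3.16% and 3.45% at DIV7, was without a DIV1 peak in both lists, and its shared bases were 100% repeat.

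With all peaks no bin gained coverage among 13346 tested by limma (0%, while before adjustment 0.944% were higher and 11.1% lower with a p under 0.05) and 35 lost it (0.262%). A bin within Syt2, a calcium sensor of fast transmitter release, fell from 7.76%, 8.97% and 7.28% to 0.99%, 0 and 0 (limma adjusted p = 0.00417). A bin of Dlgap1, a postsynaptic scaffold, had 8.11%, 8.41% and 11.4% and then 0 (limma adjusted p = 0.0344), and an intergenic bin 48440 bp from Cacna1a, the P/Q-type calcium channel, 6.41%, 7.07% and 5.73% and then 0 (limma adjusted p = 0.0212). A bin 30720 bp from Lhx2, a LIM homeobox gene, had 10.6%, 10.1% and 12.7% and then 1.55%, 0 and 1.68% (limma adjusted p = 0.0398). The counts at equal length were again moved by single libraries. Without DIV7 replicate 1 there were 1 gained and 2 lost bins, without DIV7 replicate 3 there were 3 and 3, and without DIV7 replicate 2 there were 21 and 12. Without DIV1 replicates 1, 2 and 3 in turn there were 11, 11 and 12 gained and 48, 34 and 24 lost.

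**Figure D4:**
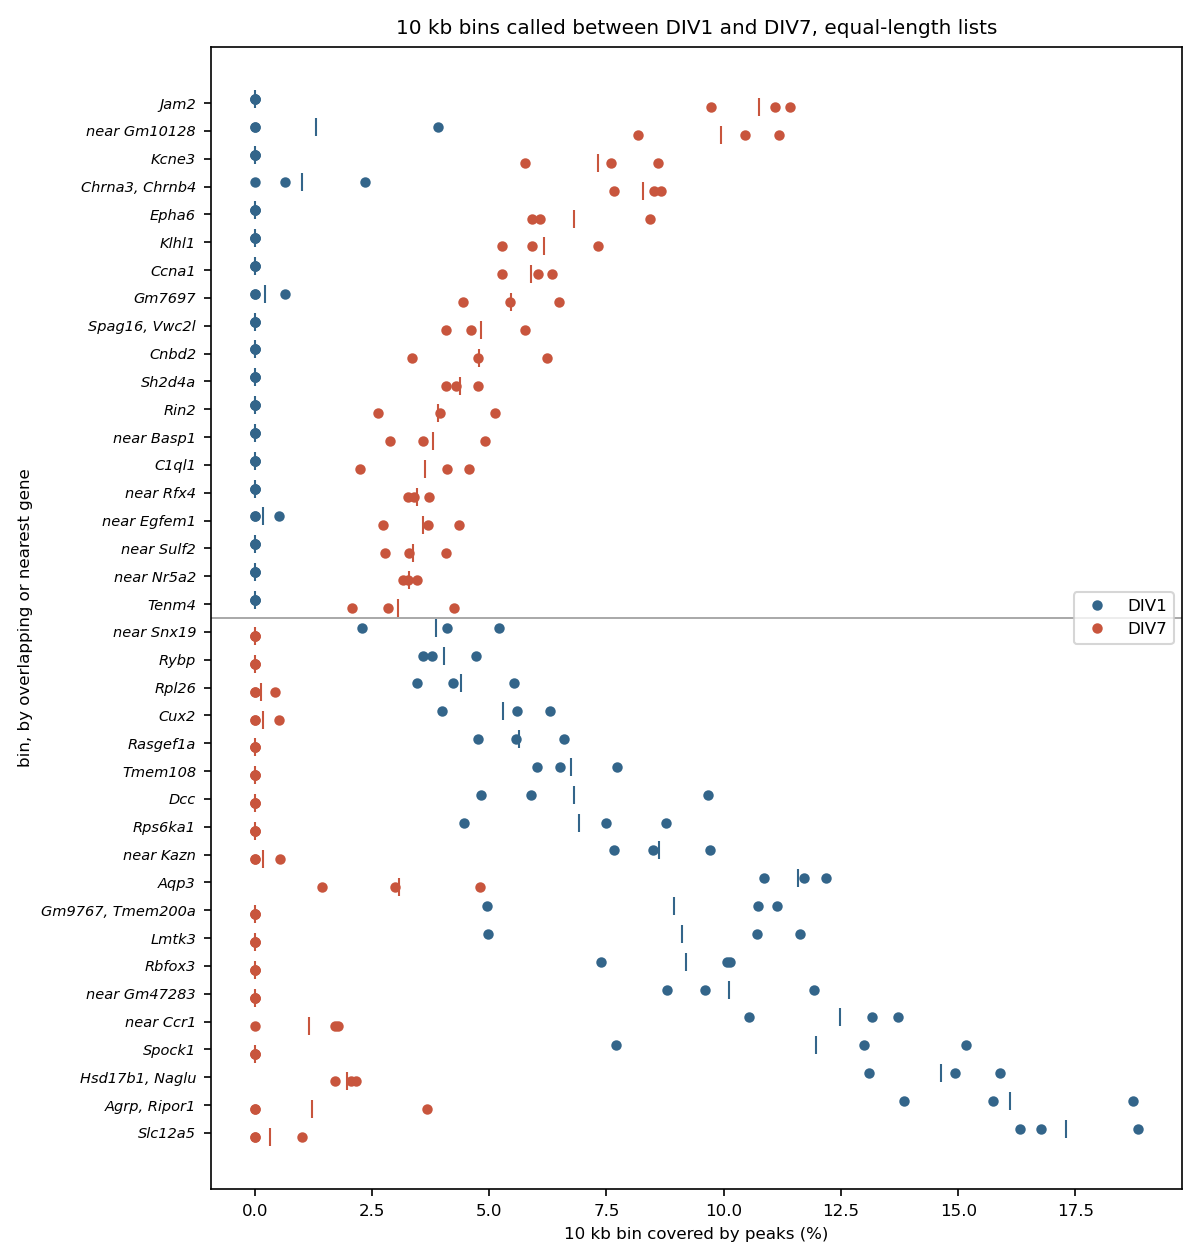
Percentage of each called 10 kb bin covered by peaks (horizontal axis) at DIV1 (blue) and DIV7 (red) in equal-length lists, 1 row per bin, named by its overlapping or nearest gene, with lost bins below the grey line; points are libraries and ticks are means of 3. The Slc12a5 bin has the largest loss, from 16.3% to 18.8% down to at most 1.00%, and the gained bins lie at 2.08% to 11.4% at DIV7.

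Along the promoter, peaks sat mostly just downstream of the 5' end. Mean coverage of the 1794 promoters tested at equal length peaked 300 to 500 bp downstream in each of the 6 libraries. At equal length 68.1% of the coverage lay within 1 kb of the 5' end at DIV1 and 75.9% at DIV7. The median peak was 178, 188 and 188 bp long at DIV1 and 178, 157 and 165 bp at DIV7 in the full lists. The share of the covered length in gene bodies, with equal-length lists, was 23.5%, 25.5% and 23.0% at DIV1 and 20.3%, 22.4% and 21.6% at DIV7, so the groups did not overlap (exact permutation p = 0.1, the smallest possible). The share in promoter windows with all peaks, 42.2% ± 0.619 and 39.2% ± 5.15 (SD, n = 3 each, exact permutation p = 0.4), differed by less than the spread of DIV7.

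Median GC content was 46.8% in the 8 gained promoters, 52.4% in the 10 lost promoters and 49.4% in all 1794 tested. Among chromosomes, equal-length lists placed more of their length on chromosome 14 at DIV7 (9.21%, 9.21% and 9.86%) than at DIV1 (6.92%, 7.93% and 7.50%), and on chromosome 3 (5.00%, 5.07% and 5.89% against 3.46%, 3.84% and 4.08%). Chromosomes 4 and 11, which carry Aqp3, Rps6ka1 and Hsd17b1, had less. Chromosome 11 held 6.03%, 5.07% and 5.72% at DIV7 and 7.85%, 6.52% and 7.44% at DIV1. These 4 chromosomes were picked out of 21 after their values were seen, so the differences are given without a test.

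**Figure D5:**
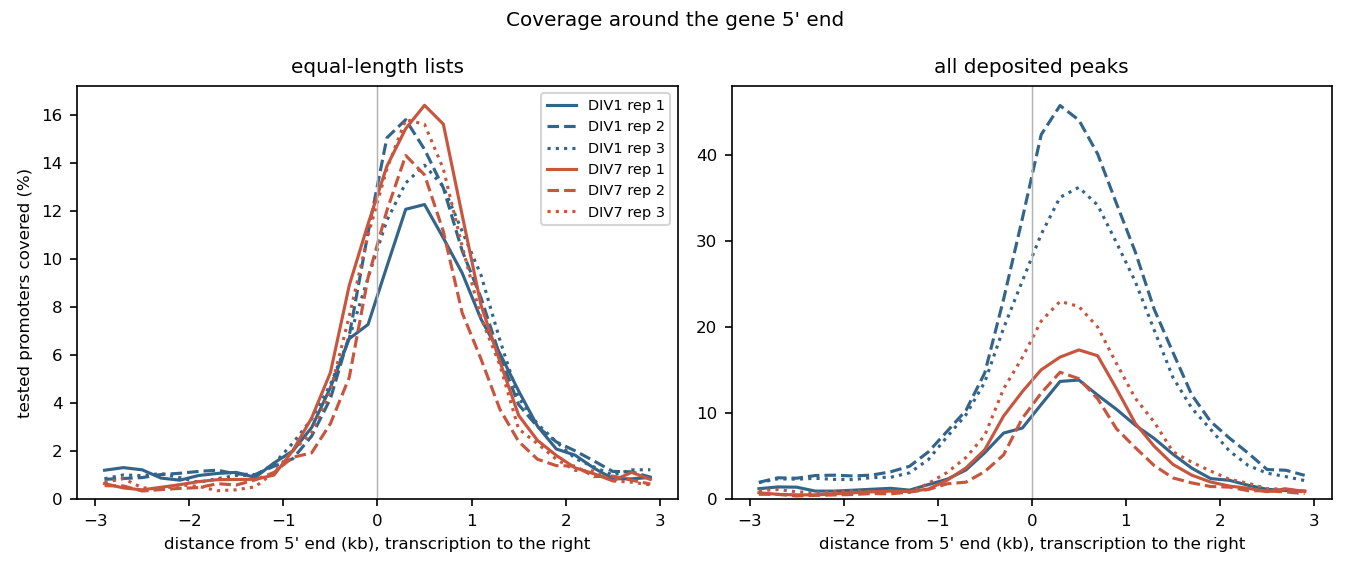
Mean percentage of the tested promoters covered by peaks (vertical axis) by distance from the gene's 5' end in kb (horizontal axis), for each DIV1 library (blue) and DIV7 library (red), from equal-length lists (left panel) and all deposited peaks (right panel). Both panels show the 1794 promoters tested at equal length. Every curve peaks 300 to 500 bp downstream, at 12.3% to 16.4% on the left and at 13.9% to 45.8% on the right, where DIV1 replicates 2 and 3 stand above the other libraries.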

How the data were processed

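H3K27me3 was profiled by CUT&RUN in cultured mouse CGNs. The authors trimmed reads with Trimmomatic 0.38, aligned them to mm10 (STAR 2.7.2b) and ran MACS2 2.1 in broad mode on each library, with a control that is not given in the sources used here. The deposited lists give each peak a fold enrichment (a ratio over local background), a −log10 p-value and a −log10 q-value. The deposited score was not used. The read counts that the authors tested with DESeq2 1.36.0 are not used here. Depth is unknown, so no counting interval is given.

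Coverage of windows (GENCODE, GRCm38, 21938 protein-coding genes) and of 10 kb bins was computed from all peaks and from lists of equal length. Features covered in at least 3 of the 12 time course libraries were fitted in limma (version 3.58.1, R version 4.3.3) by lmFit with robust eBayes and a mean per day, with Benjamini-Hochberg adjustment and a threshold of 0.05. Whole-library values were compared by exact permutation. Replicates are pooled litters, and same-numbered libraries did not deviate together, so numbers were not used as pairs.

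Members, gene lists and tests were chosen with earlier results of these data known. Named promoters were those called at equal length, the 15 per direction lowest in adjusted p with all peaks, the 25 uncalled per direction lowest in p with groups that do not overlap, up to 4 per gene list, the study's example genes and up to 15 called bins per direction. Others were named after their values were seen. Alternatives covered the peak list, ranking, window and bin size, filter, scale, samples, replicate block and each library left out. The setting without any replicate 1 was chosen after seeing the data.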

Additional observations from a re-analysis of the deposited data

How the results depend on the processing

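All 18 promoters called at equal length kept their direction in every alternative in which they were tested, as did those named among the calls with all peaks. At equal length the DIV1 and DIV7 libraries of the 18 did not overlap. Leaving out a library or changing the scale or filter therefore could not reverse their direction. The counts did not hold. At equal length (8 gained and 10 lost promoters) all deposited peaks gave 1 and 39, a floor of 2 on the −log10 q gave 2 and 2 with none of the 18 tested, ranking by fold enrichment gave 1 and 4, and the 6 DIV1 and DIV7 libraries alone gave 1 and 1. A log2 scale gave 15 gained, coverage in at least 1 library gave 15 gained, and windows of 1 kb on each side gave 6 lost. Leaving out 1 library gave 0 to 8 gained and 0 to 27 lost. Dropping all 4 libraries numbered 1 gave 0 and 4. With all peaks (1 and 39) the 1 kb windows gave 0 and 4, the log2 scale 20 and 182, the 6 libraries alone 0 and 2, and coverage in at least 1 library 0 gained. Leaving out 1 library gave 0 to 7 and 3 to 673, and dropping those numbered 1 gave 4 and 591. For bins (19 and 19) all peaks gave 0 and 35, ranking by fold enrichment 1 and 8, leaving out 1 library 1 to 21 and 2 to 48, and dropping those numbered 1 gave 0 and 2. The cause was not tested, except that 4 of the 8 gains were covered in too few libraries to be tested once any DIV7 library was left out. Without any 1 DIV1 library, 7 of the 10 losses at equal length could be tested, and 33 of the 39 with all peaks. Covered length, the promoter share and the number of promoters with a peak stayed lower at DIV7 when 1 library was left out or the q floor was applied. With lists of equal length, where covered length is equal by construction, promoters with a peak were instead higher by 265 at DIV7, and with the q floor and equal length by 27.7, with a promoter share higher by 4.08 points.

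With the replicate number as a block, which the deviations of same-numbered libraries do not bear out as a pairing (correlations −0.069 to 0.157), equal-length lists gave 8 gained and 10 lost promoters, all peaks 1 and 43, and bins 13 and 16. Of the calls without the block, 8 of 8 gains and 9 of 10 losses at equal length and 29 of 39 losses with all peaks were kept, as were 12 of 19 gained and 16 of 19 lost bins. Klhl1, the gain with all peaks, was not kept (limma adjusted p = 0.0602), so the 1 gain there is another promoter. Calls made on the extent of peaks leave out changes of read density within a peak.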
